A study of Homo sapiens with 12 samples.

Results

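The genes described here are the 10 genes of the ERK5 cascade and of the transcription factors it is known to act through: the kinases MAP3K2, MAP3K3, MAP2K5 and MAPK7, the MEF2 factors MEF2A, MEF2C and MEF2D, and the Krüppel-like factors KLF2, KLF4 and KLF6. They were taken by gene name from the deposited expression values, which list 32152 genes, and all 10 passed the filter that left 13737 protein-coding genes for testing. RNA was sequenced from 12 libraries of MDA-MB-231 and Hs-578T, established triple-negative breast cancer cell lines. In each line, 2 libraries came from parental controls, 2 from cells labelled ERK5-ko and 2 from cells labelled MEK5DD. ERK5-ko cells were made with Cas9 and guides against MAPK7, and MEK5DD is the name of a MEK5 mutant that is active without its upstream kinases.

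The labels give no other genotype or treatment. The parental controls had not been through the clonal selection that gave the ERK5-ko cells. In MDA-MB-231 the ERK5-ko line is a single clone, and in Hs-578T several clones were obtained and the sources used here do not say which was sequenced. How the MEK5DD cells were made is not described there. MDA-MB-231 parental controls were at passages 29 and 30, ERK5-ko cells at 7 and 8, and MEK5DD cells at 10 and 11. Hs-578T parental controls were at passages 83 and 84, and both the ERK5-ko and the MEK5DD cells at 8 and 9. Passage, clonal selection and label therefore cannot be told apart in any comparison with parental controls. The study made its ERK5-ko lines from cells at higher passage numbers than those labelled for ERK5-ko here. Whether the passages of different labels count from the same start is not stated.

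In this cascade, signals from growth factors and stress reach the kinases MEKK2 and MEKK3, the products of MAP3K2 and MAP3K3, which phosphorylate MEK5, the product of MAP2K5. MEK5 in turn phosphorylates ERK5, the product of MAPK7, a kinase with a long C-terminal tail that can itself activate transcription. ERK5 phosphorylates the MADS-box factors MEF2A, MEF2C and MEF2D, and in endothelial cells MEF2 factors are known to drive KLF2 and KLF4. KLF6 is a related zinc finger factor that is induced by many stimuli. Phosphorylation is not visible in RNA, so the values below are transcript levels and say nothing of kinase activity.

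A promoter with a MEF2 motif shows what such a link looks like in sequence. RefSeq promoters (GRCh38.p14) were found for all 10 genes, 20 in all, and their 250 bases before the start were searched for CTA, any 4 bases, then TAG, a pattern that reads the same on both strands. It was found in 2 of these 20 promoters, those of KLF2 and of 1 of the 3 starts of MEF2A, and in 2.36% of all 35116 promoters. The upstream part of the KLF2 promoter, chr19:16324576-16324816 on the plus strand, is printed with the motif in capitals, because KLF2 is the textbook MEF2 target among these genes. In MEF2A the motif lies in chr15:99565951-99565980, also on the plus strand.
KLF2: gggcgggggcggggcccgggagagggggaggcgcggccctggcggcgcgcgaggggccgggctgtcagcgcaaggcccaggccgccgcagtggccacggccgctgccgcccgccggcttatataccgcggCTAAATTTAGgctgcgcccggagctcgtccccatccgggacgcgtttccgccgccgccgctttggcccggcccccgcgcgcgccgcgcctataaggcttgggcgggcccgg
MEF2A: ggcttgtctcCTAAAAATAGccccggtgtg
The KLF2 motif lies 120 bases before the RefSeq start and the MEF2A motif 23 bases before its start. A match describes the letters of the reference genome and is not a measured binding site.

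The authors deposited RPKM, reads on a gene divided by its length in kilobases and by the total reads of the library. Library totals recovered from these values lay between 20248162 and 27791195 reads, and 3 reads was taken as the floor of detection, for counting error only. RNA of ESR1 and PGR was at or below 0.348 RPKM in every library, and ERBB2 lay between 27.8 and 56.8 RPKM. Of the mesenchymal markers, VIM was at 1598 RPKM or more and CD44 at 819 RPKM or more, and FN1 lay between 36.8 and 77.6 RPKM in MDA-MB-231 and between 1847 and 3278 RPKM for Hs-578T. Of the epithelial markers, KRT8 lay between 595 and 1146 RPKM and KRT18 between 328 and 692 RPKM in MDA-MB-231, and between 27.9 and 71 RPKM and between 141 and 596 RPKM in Hs-578T. EPCAM reached 25.7 RPKM in MDA-MB-231 and 0.0862 RPKM in Hs-578T, and CDH1 did not exceed 1.16 RPKM. Of 5 markers of other cell types, PTPRC, CD3E, CDH5 and HBB did not exceed 0.396 RPKM, whereas PECAM1 lay between 0.194 and 0.841 RPKM in MDA-MB-231 and between 2.81 and 6.48 RPKM in Hs-578T. Replicates of 2 groups stood apart from each other more than the rest. Between replicates, the chi-square per degree of freedom was 28.2 in Hs-578T parental controls and 38.5 in Hs-578T MEK5DD libraries, against 2.67 to 8.21 in the other 4 groups.

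Among the 10 genes, levels per length covered a wide range, and their order rests on the gene lengths used for the RPKM. In MDA-MB-231 parental controls the mean RPKM fell from 124 for KLF6 and 51.4 for MAP3K3 through 25.4 for MEF2A, 25.2 for MEF2D, 16.5 for KLF4, 14.6 for MAP3K2, 13.8 for MAPK7 and 13.2 for MAP2K5 to 6.19 for KLF2 and 2.01 for MEF2C. The replicates of MEF2A and MEF2D overlapped there, as did those of MAP3K2 and MAPK7 and those of MAPK7 and MAP2K5. In Hs-578T parental controls the order was KLF6 at 70.8, MEF2A at 28.6, MAP3K3 at 20, KLF4 at 17.7, MAP2K5 at 15.8, MAPK7 at 15.0, MEF2D at 13.2, MAP3K2 at 9.17, KLF2 at 3.23 and MEF2C at 1.42 RPKM. The replicates of MAP2K5 and MAPK7 and those of MAPK7 and MEF2D overlapped. MEF2C was the lowest of the 10 genes in all 6 groups, with 26 to 112 reads per library, and KLF2 the next lowest, with 54 to 261 reads. KLF6 was the highest in every group except MDA-MB-231 MEK5DD, where MAP2K5 was.

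**Figure D1:**
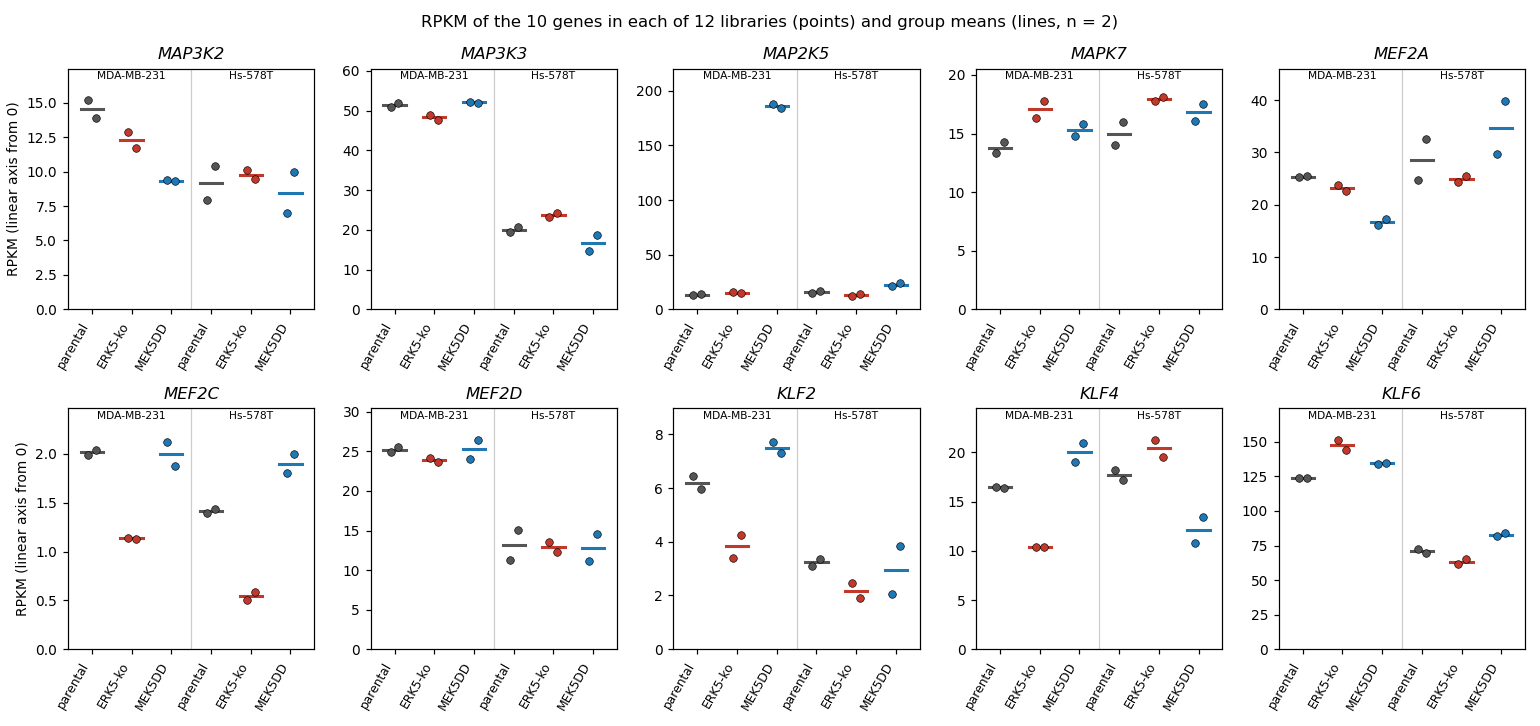
RPKM of the 10 genes (vertical axes, linear from 0, each on its own scale) in the 12 libraries (points) of the 6 groups (horizontal axis), with lines for group means of 2 libraries. MAP2K5 stands at 184 and 188 RPKM in MDA-MB-231 MEK5DD and at 23.8 RPKM or less in every other group, and MEF2C is lowest in the ERK5-ko libraries of both lines.

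Differences were tested with limma on log2(RPKM + 0.5), and a gene passed at a Benjamini-Hochberg adjusted p under 0.05 over all tested genes. Nothing in the labels says that replicates, which were consecutive passages, came from separate cultures, so these p-values measure only the spread between the libraries. With 2 libraries against 2, an exact two-sided permutation test could not go below p = 0.333. Groups without overlap are therefore no evidence of a difference by themselves. In MDA-MB-231 ERK5-ko libraries even MEF2D and MAP3K3, with log2 fold changes of -0.07 and -0.09, did not overlap parental controls. The share of all genes without overlap was not counted. Fold changes, with their standard errors (SE), are on the log2(RPKM + 0.5) scale, which understates those of low genes such as MEF2C. In bulk RNA, fewer cells that express a gene and less RNA of it per cell cannot be told apart.

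Against parental controls, 1 of the 10 genes passed as higher and 2 as lower in MDA-MB-231 ERK5-ko libraries, where 6.91% of all tested genes were higher and 10.4% lower. In Hs-578T ERK5-ko libraries, none passed as higher and 1 as lower, against 19.7% of all genes in each direction. On the recovered reads, limma voom also passed none as higher and 1 as lower there. By limma, 4 of the 10 had an unadjusted p under 0.05 in that comparison without passing after adjustment. The shares of all genes on the recovered reads and at the unadjusted p were not counted. In MDA-MB-231 MEK5DD libraries 1 gene passed as higher and 2 as lower, against 17.5% and 23.8% of all genes. In Hs-578T MEK5DD libraries 2 passed as higher and 1 as lower, against 6.44% and 17.0% of all genes. The median log2 fold change of the 10 genes was -0.11, -0.09, 0.07 and 0.06 in these comparisons, beside -0.04, 0.01, -0.01 and -0.08 over all tested genes. The ERK5-ko and MEK5DD comparisons of a line share their parental libraries, so they are not independent of each other.

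**Figure D2:**
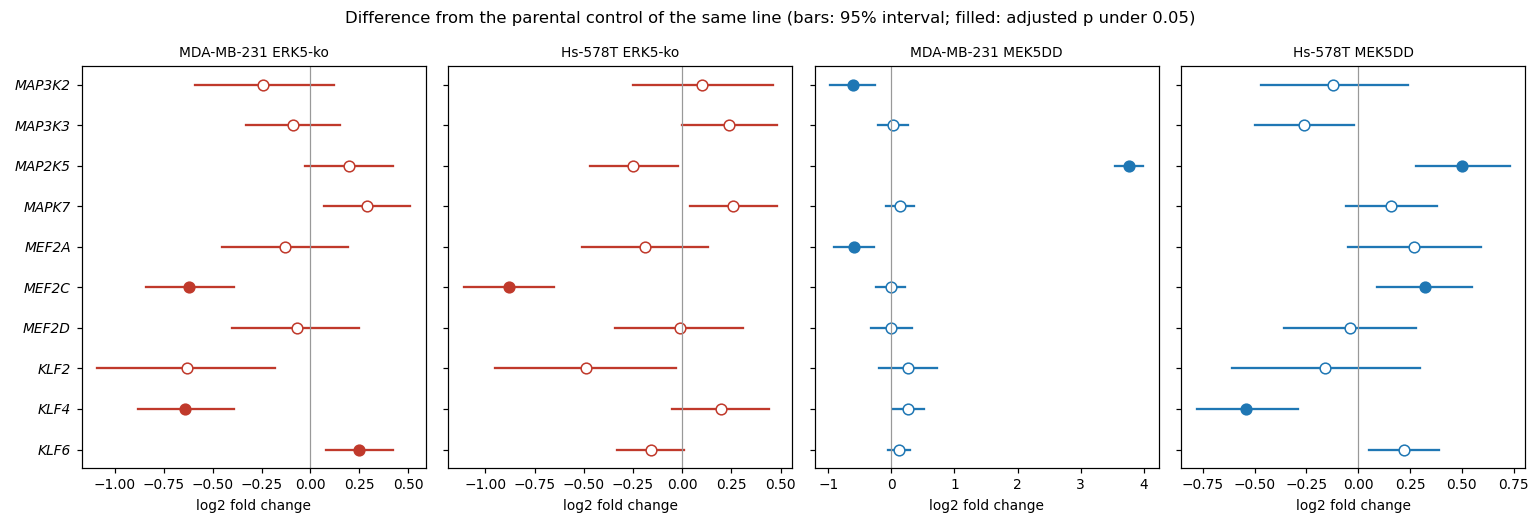
Log2 fold change of each gene (horizontal axes, on the log2(RPKM + 0.5) scale, each panel with its own range) against the parental controls of the same line, with bars for the 95% interval from limma (n = 2 libraries a group) and filled points for an adjusted p under 0.05. MEF2C lies below 0 in both ERK5-ko panels, and MAP2K5 lies at 3.77 in MDA-MB-231 MEK5DD and at 0.50 in Hs-578T MEK5DD.

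Of the 2 kinases at the top of the cascade, MAP3K2 was lower in MDA-MB-231 MEK5DD libraries and MAP3K3 passed in no comparison with parental controls. MAP3K2 (ENSG00000169967.16, GRCh38 chromosome 2, 127298730 to 127388465), the gene of MEKK2, stood at 15.2 and 13.9 RPKM in MDA-MB-231 parental controls, at 12.9 and 11.7 in ERK5-ko and at 9.36 and 9.31 in MEK5DD libraries. The 3 groups did not overlap. The log2 fold change was -0.61 (SE 0.161, limma adjusted p = 0.00957) for MEK5DD and -0.24 (limma adjusted p = 0.362) for ERK5-ko. The call for MEK5DD was lost without either MEK5DD library, with adjusted p of 0.0509 and 0.0535, or without parental replicate 1, with 0.0739. In Hs-578T, MAP3K2 was at 7.92 and 10.4 RPKM in parental controls, 10.1 and 9.48 in ERK5-ko and 6.98 and 9.94 in MEK5DD libraries. All 3 groups overlapped and the higher replicate of the parental and MEK5DD groups was replicate 2.

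MAP3K3 (ENSG00000198909.7, chromosome 17, 63622415 to 63696303), the gene of MEKK3, was steady in MDA-MB-231, with 47.7 to 52.2 RPKM over the 6 libraries. In Hs-578T it was at 19.4 and 20.6 RPKM in parental controls, 23.2 and 24.2 in ERK5-ko and 14.6 and 18.8 in MEK5DD libraries. The log2 fold change was 0.24 (95% interval 0.00 to 0.48, limma adjusted p = 0.101) for ERK5-ko and -0.26 (-0.50 to -0.02, limma adjusted p = 0.105) for MEK5DD. With the replicate number as a block both passed, with adjusted p of 0.0437 and 0.044, and the ERK5-ko change passed without either MEK5DD library (adjusted p = 0.0149 in both fits). The MEK5DD change rested on single libraries, being -0.44 (limma adjusted p = 0.00343) without MEK5DD replicate 2 and -0.08 without replicate 1. Between ERK5-ko and MEK5DD in Hs-578T the groups did not overlap and the log2 difference was 0.50 (SE 0.109, limma adjusted p = 0.00268). MAP3K3 shares 402 bases with LIMD2 on the opposite strand and 513 bases with the pseudogene EEF1DP7 on its own strand, and LIMD2 reached 17.0 RPKM.

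The gene of MEK5, MAP2K5 (ENSG00000137764.19 on chromosome 15, 67542709 to 67807123), was higher in the MEK5DD libraries of both lines, by very different amounts. In MDA-MB-231 it was at 12.9 and 13.6 RPKM in parental controls, 15.6 and 14.8 in ERK5-ko and 188 and 184 in MEK5DD libraries, where 4991 and 5612 reads fell on it. The mean was 14.1 times that of the controls, a log2 fold change of 3.77 (SE 0.102, limma adjusted p = 3.31e-10), which ranked 27 by size among 13737 tested genes. In Hs-578T it was at 14.6 and 16.9 RPKM in parental controls, 12.5 and 13.8 in ERK5-ko and 21.3 and 23.8 in MEK5DD libraries. The mean was 1.43 times that of the controls, a log2 fold change of 0.50 (SE 0.102, limma adjusted p = 0.00492), and in a fit of the Hs-578T libraries alone this call was lost (adjusted p = 0.0806). The difference in the MEK5DD effect between the lines was 3.26 on the log2 scale (SE 0.144, limma adjusted p = 4.84e-08). Reads from an introduced MEK5DD construct and from the cells' own MAP2K5 gene cannot be told apart in these gene-level values.

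In ERK5-ko libraries MAP2K5 did not pass in either line. The log2 fold change was 0.20 (95% interval -0.03 to 0.42, limma adjusted p = 0.222) in MDA-MB-231 and -0.25 (-0.47 to -0.02, limma adjusted p = 0.0736) in Hs-578T, and the latter passed with the replicate block (adjusted p = 0.0229), without either Hs-578T MEK5DD library (adjusted p = 0.0438 in both fits) and without Hs-578T parental replicate 1 (-0.35, limma adjusted p = 0.0397). The difference between the lines passed, at 0.44 (SE 0.144, limma adjusted p = 0.0295), and was lost in 8 of 20 alternatives. These left out any 1 of the 6 MDA-MB-231 libraries, Hs-578T ERK5-ko replicate 1 or Hs-578T parental replicate 2, with adjusted p of 0.0505 to 0.104 and log2 differences of 0.34 to 0.48.

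MAPK7 (ENSG00000166484.19, chromosome 17, 19377721 to 19383544), the gene of ERK5 and the target of the guides, was at least as high in RNA in every ERK5-ko library as in its parental controls. It was at 13.3 and 14.3 RPKM in MDA-MB-231 parental controls, 16.3 and 17.8 in ERK5-ko and 14.8 and 15.8 in MEK5DD libraries, and at 14 and 16, 17.8 and 18.1, and 16.1 and 17.5 in the same groups of Hs-578T. The ERK5-ko libraries were above the controls in both lines, but the log2 fold changes of 0.29 (95% interval 0.07 to 0.51, adjusted p = 0.0709) and 0.26 (0.04 to 0.48, adjusted p = 0.0624) missed the limma threshold, and they passed with the replicate block (adjusted p of 0.0274 and 0.0252) and without either Hs-578T MEK5DD library. In Hs-578T the change was 0.35 without parental replicate 2 and passed (limma adjusted p = 0.0347). The MDA-MB-231 change also passed under median-ratio scaling (0.35, limma adjusted p = 0.0293), quantile normalization (0.0263) and a fit of that line alone (0.0439). The Hs-578T change passed under none of these. The difference between the lines was 0.03 (95% interval -0.28 to 0.34). The guides were directed at exons 3 and 5. In a principal transcript of GENCODE 29 these are the 166 bases 19379782 to 19379947 and the 686 bases 19381781 to 19382466 of chromosome 17, although the transcript used for the numbering is not stated. A value for the whole gene cannot show small insertions or deletions there, and it is no check of the ERK5 protein. MAPK7 also shares 103 bases with MFAP4 and 462 with B9D1 on the opposite strand, which reached 17.4 and 35.7 RPKM.

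The 3 MEF2 genes moved differently. MEF2C was lower in the ERK5-ko libraries of both lines, MEF2A was lower in those labelled MEK5DD in MDA-MB-231, and MEF2D passed in no comparison with parental controls. MEF2C (ENSG00000081189.13, chromosome 5, 88717117 to 88904257), a factor best known from muscle, neurons and endothelium, was at 1.99 and 2.04 RPKM in MDA-MB-231 parental controls, 1.14 and 1.13 in ERK5-ko and 2.12 and 1.88 in MEK5DD libraries. In Hs-578T it was at 1.39 and 1.44, 0.501 and 0.585, and 1.8 and 2 RPKM in the same groups. In both lines the ERK5-ko libraries were the lowest, without overlap.

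The mean of MEF2C in ERK5-ko libraries was 0.566 of the controls in MDA-MB-231, a log2 fold change of -0.62 (SE 0.104, limma adjusted p = 0.00232). In Hs-578T it was 0.383 of the controls, a log2 fold change of -0.88 (SE 0.104, limma adjusted p = 7.12e-05). The difference between the lines was 0.26 (95% interval -0.06 to 0.59, limma adjusted p = 0.176). In Hs-578T MEK5DD libraries MEF2C was higher by a log2 fold change of 0.32 (SE 0.104, limma adjusted p = 0.045), a call near the threshold that held in 7 of 21 alternatives and was lost without MEK5DD replicate 2 (limma adjusted p = 0.118). In MDA-MB-231 MEK5DD libraries it differed by -0.01 (95% interval -0.24 to 0.22). The antisense gene MEF2C-AS1, which shares 20930 bases with MEF2C, did not exceed 0.388 RPKM.

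MEF2A (ENSG00000068305.17, chromosome 15, 99565417 to 99716466), the broadly expressed member, was at 25.2 and 25.5 RPKM in MDA-MB-231 parental controls, 23.7 and 22.7 in ERK5-ko and 16.2 and 17.2 in MEK5DD libraries. The MEK5DD libraries were the lowest, with a log2 fold change of -0.59 (SE 0.145, limma adjusted p = 0.0069), and without MEK5DD replicate 1 the call was lost (adjusted p = 0.0533). In Hs-578T, MEF2A was at 24.7 and 32.5 RPKM in parental controls, 24.3 and 25.4 in ERK5-ko and 29.6 and 39.9 in MEK5DD libraries. The parental controls overlapped both other groups, and the log2 fold change of MEK5DD was 0.27 (95% interval -0.05 to 0.59, limma adjusted p = 0.205). It rested on single libraries, passing at 0.48 without MEK5DD replicate 1 (limma adjusted p = 0.0321) and falling to 0.06 without replicate 2 (limma adjusted p = 0.778). The MEK5DD effect differed between the lines by -0.86 (SE 0.205, limma adjusted p = 0.00642). MEF2A shares 770 bases with LYSMD4 on the opposite strand, which did not exceed 5.09 RPKM.

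MEF2D (ENSG00000116604.17, chromosome 1, 156463727 to 156500828), a MEF2 factor also found in many tissues, lay between 23.6 and 26.4 RPKM in the 6 MDA-MB-231 libraries and between 11.1 and 15.1 in the 6 Hs-578T libraries. Its groups within Hs-578T overlapped, and the higher replicate of the parental and MEK5DD groups was again replicate 2. The widest 95% limits of its log2 fold change against parental controls were -0.40 and 0.32.

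Of the KLF genes, KLF4 differed between the lines in its change under both labels. KLF4 (ENSG00000136826.14, chromosome 9, 107484852 to 107490482), a factor known for its part in epithelial and endothelial differentiation and in reprogramming, was at 16.5 and 16.4 RPKM in MDA-MB-231 parental controls, 10.4 and 10.4 in ERK5-ko and 19.0 and 21.0 in MEK5DD libraries. In Hs-578T it was at 18.2 and 17.2, 21.3 and 19.5, and 10.8 and 13.4 RPKM in the same groups. So the ERK5-ko libraries were the lowest group in MDA-MB-231 and the highest in Hs-578T, and within each line no groups overlapped.

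In MDA-MB-231, KLF4 was lower in ERK5-ko libraries by a log2 fold change of -0.64 (SE 0.111, limma adjusted p = 0.00275), and the change in MEK5DD libraries was 0.27 (95% interval 0.03 to 0.52, limma adjusted p = 0.0695). That MEK5DD change passed under median-ratio scaling (limma adjusted p = 0.0353), quantile normalization (0.0152) and a fit of MDA-MB-231 alone (0.0226). It did not pass with the replicate block or on the recovered reads. In Hs-578T the change in ERK5-ko libraries was 0.20 (-0.05 to 0.44, limma adjusted p = 0.179), and KLF4 was lower in MEK5DD libraries by -0.54 (SE 0.111, limma adjusted p = 0.00556), although not in a fit of the Hs-578T libraries alone (adjusted p = 0.0783). The ERK5-ko effect differed between the lines by -0.84 (SE 0.157, limma adjusted p = 0.00167) and the MEK5DD effect by 0.81 (SE 0.157, limma adjusted p = 0.00186).

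KLF2 (ENSG00000127528.5, chromosome 19, 16324817 to 16327874), known as a flow-responsive factor of endothelium, had lower values in the ERK5-ko libraries of both lines but did not pass in either. It was at 6.43 and 5.95 RPKM in MDA-MB-231 parental controls, 3.40 and 4.26 in ERK5-ko and 7.71 and 7.30 in MEK5DD libraries, with no overlap. The log2 fold change in ERK5-ko libraries was -0.63 (95% interval -1.09 to -0.18, limma adjusted p = 0.0586), about the size of that of KLF4 with a standard error of 0.209. It passed with the replicate block (adjusted p = 0.0481), on the recovered reads (0.0346) and without either Hs-578T MEK5DD library (0.00663 and 0.00668). In Hs-578T, KLF2 was at 3.09 and 3.37 RPKM in parental controls, 2.45 and 1.89 in ERK5-ko and 2.07 and 3.86 in MEK5DD libraries. The 2 MEK5DD libraries enclosed both parental controls, and the MEK5DD change was 0.23 without replicate 1 and passed at -0.54 without replicate 2 (limma adjusted p = 0.0289). The log2 fold change in ERK5-ko libraries was -0.49 (95% interval -0.95 to -0.03, limma adjusted p = 0.0852), which passed without MEK5DD replicate 1 or 2 (adjusted p of 0.0121 and 0.0122), and the difference between the lines was -0.15 (-0.79 to 0.50).

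KLF6 (ENSG00000067082.14, chromosome 10, 3775996 to 3785281), the most abundant member, differed little between groups and had small errors. It was at 124 and 124 RPKM in MDA-MB-231 parental controls, 151 and 144 in ERK5-ko and 134 and 135 in MEK5DD libraries. In Hs-578T it was at 72.2 and 69.4, 61.4 and 65.3, and 81.6 and 83.8 RPKM. The ERK5-ko libraries were thus above the controls in MDA-MB-231 and below them in Hs-578T. The log2 fold change was 0.25 (SE 0.0767, limma adjusted p = 0.0459) in MDA-MB-231, a call that was lost in 8 of 21 alternatives, and -0.16 (95% interval -0.33 to 0.01, limma adjusted p = 0.123) in Hs-578T. The difference between the lines was 0.41 (SE 0.108, limma adjusted p = 0.012). In Hs-578T MEK5DD libraries the log2 fold change was 0.22 (95% interval 0.05 to 0.39, limma adjusted p = 0.0569), and it passed with the replicate block (adjusted p = 0.0366).

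Counts against parental controls moved with the replicate block and with single libraries. The shares of all genes that passed under these settings were not counted, so whether the moves are particular to these genes is not shown. With the block, 5 of the 10 genes passed in MDA-MB-231 ERK5-ko libraries, 4 in Hs-578T ERK5-ko and 5 in Hs-578T MEK5DD libraries. Without Hs-578T MEK5DD replicate 1 or 2, which leaves the compared libraries of the ERK5-ko comparisons as they are, 5 genes passed in the ERK5-ko libraries of each line, among them MAPK7 and KLF2 in both. Without MDA-MB-231 MEK5DD replicate 1, MAP2K5 was the 1 gene that passed in MDA-MB-231 MEK5DD libraries. In Hs-578T ERK5-ko libraries 2 genes passed without either parental replicate.

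Set directly against each other, ERK5-ko and MEK5DD libraries differed in 5 of the 10 genes in MDA-MB-231 and 6 of the 10 in Hs-578T, shares close to those of all tested genes. This comparison shares no parental library, and the passage numbers as labelled differed by at most 4. These numbers may not count from the same start, and whether MEK5DD cells were clonally selected is not described. In MDA-MB-231, MEF2A was higher in ERK5-ko libraries (27.1% of all genes were higher) and MAP2K5, MEF2C, KLF2 and KLF4 were lower (27.9% of all genes were lower). MEF2A was higher by a log2 difference of 0.46 (SE 0.145, limma adjusted p = 0.0181), and this call was lost without any 1 of the 4 libraries compared (adjusted p of 0.0528 to 0.0983). KLF2 was lower by -0.89 (SE 0.209, limma adjusted p = 0.00338), KLF4 by -0.91 (SE 0.111, limma adjusted p = 3.17e-05) and MEF2C by -0.61 (SE 0.104, limma adjusted p = 0.000417). MAP3K2 differed by 0.38 (95% interval 0.03 to 0.73, limma adjusted p = 0.0655) and passed with the replicate block (adjusted p = 0.0269). In Hs-578T, MAP3K3 and KLF4 were higher in ERK5-ko libraries (30.7% of all genes) and MAP2K5, MEF2A, MEF2C and KLF6 were lower (19.2% of all genes). MEF2C was lower by -1.20 (SE 0.104, limma adjusted p = 3.77e-06), 0.286 of its mean in MEK5DD libraries, and KLF4 was higher by 0.74 (SE 0.111, limma adjusted p = 0.000244). MEF2C and MAP2K5 were thus lower in ERK5-ko than in MEK5DD libraries in both lines, and KLF4 was on opposite sides. Without Hs-578T MEK5DD replicate 1, KLF2 also passed as lower, at -0.71 (limma adjusted p = 0.00552), and without replicate 2 it was at 0.05 and MAP3K2 passed as higher, at 0.46 (limma adjusted p = 0.0237). MEF2A no longer passed in Hs-578T without MEK5DD replicate 2 or either ERK5-ko replicate (adjusted p of 0.146, 0.0996 and 0.0719), nor in a fit of that line alone (0.114). The median difference of the 10 genes was -0.09 in MDA-MB-231 and, for Hs-578T, -0.15, beside -0.02 and 0.09 over all genes.

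**Figure D3:**
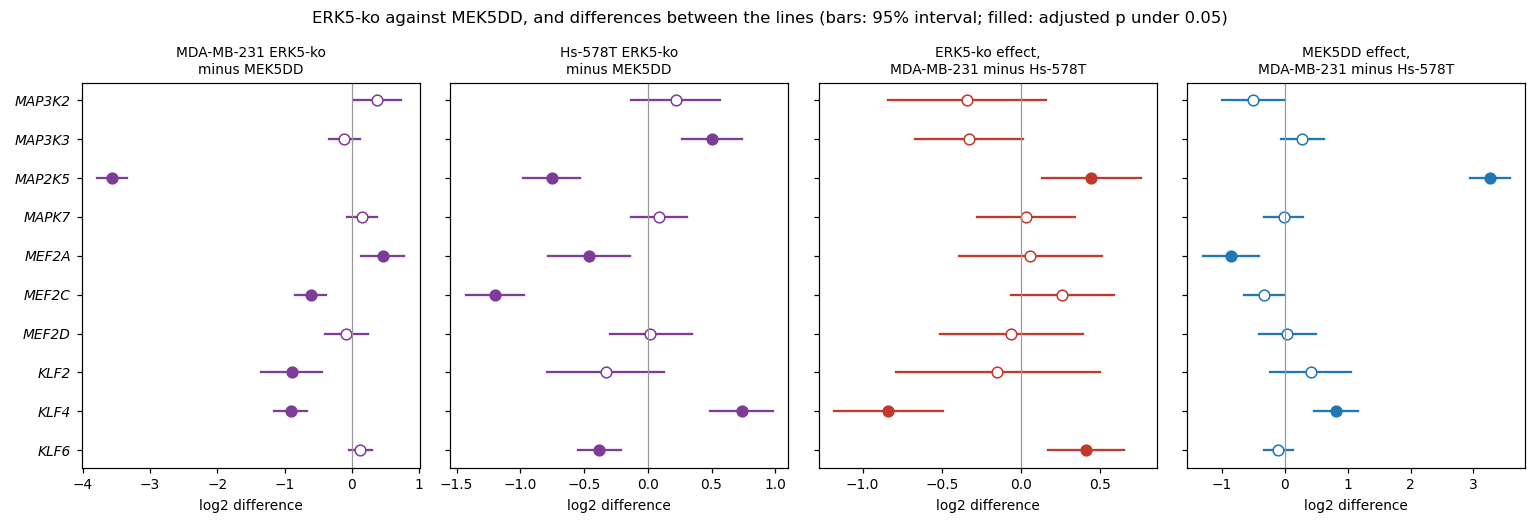
Log2 difference (horizontal axes, each panel on its own scale) of ERK5-ko minus MEK5DD libraries in each line, and of the ERK5-ko and MEK5DD effects against parental controls in MDA-MB-231 minus Hs-578T, with bars for the 95% interval from limma (n = 2 libraries a group) and filled points for an adjusted p under 0.05. KLF4 lies at -0.91 and 0.74 in the first 2 panels and at -0.84 and 0.81 in the last 2.

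The response differed between the lines for 3 genes under each label. For ERK5-ko, MAP2K5 and KLF6 passed as higher in MDA-MB-231 (18.3% of all genes) and KLF4 as lower (21.5% of all genes). For MEK5DD, MAP2K5 and KLF4 passed as higher (21.3% of all genes) and MEF2A as lower (18.2% of all genes). The median difference of the 10 genes was -0.01 for ERK5-ko and 0.01 for MEK5DD, beside -0.05 and 0.05 over all genes. Without Hs-578T MEK5DD replicate 2, the difference for MEK5DD was 0.80 for KLF2 and 0.46 for MAP3K3. With the replicate block MAP3K3 passed for ERK5-ko (adjusted p = 0.0484) and MAP3K2 for MEK5DD (adjusted p = 0.0473). Without Hs-578T MEK5DD replicate 1 both passed too, with adjusted p of 0.0174 and 0.0118, and MAP3K2 also passed without Hs-578T parental replicate 2 (0.0337).

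The parental controls of the lines differed in most of these genes, as did most genes tested. KLF2, KLF6, MAP3K2, MAP3K3, MEF2C and MEF2D were higher in MDA-MB-231, where 46.0% of all genes were higher, and MAP2K5 was lower, where 31.3% were lower. The median of all genes was itself shifted, at 0.19, and median-ratio scaling moved it to -0.02. Relative to that shift the log2 difference of 1.34 for MAP3K3 (SE 0.109, limma adjusted p = 3.54e-07), 0.92 for MEF2D, 0.84 for KLF2 and 0.81 for KLF6 remained well above the median, and that of MEF2C, 0.39, missed the threshold after the scaling (0.21, limma adjusted p = 0.0788). Under median-ratio scaling 5 genes were higher and 4 lower, and under quantile normalization 6 were higher and 4 lower, the genes gained as lower being MAPK7, MEF2A and KLF4. The shares of all genes under these scalings were not counted. The lower MAP2K5 of MDA-MB-231, at -0.24 (limma adjusted p = 0.0468), fell short of the threshold in 10 of 20 alternatives. These were the recovered reads and fits without single libraries, and it was as small as -0.14 without Hs-578T parental replicate 2.

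Other kinases of the MAPK modules, 11 genes of the classical ERK, JNK and p38 pathways, were all tested. In MDA-MB-231 ERK5-ko libraries 1 was higher and none lower, where 6.91% of all genes were higher and 10.4% lower. In Hs-578T ERK5-ko libraries 4 were higher and 2 lower (19.7% of all genes each way). In MEK5DD libraries of each line 1 was higher and 1 lower. The shares of all genes there were 17.5% and 23.8% in MDA-MB-231, and 6.44% and 17.0% in Hs-578T. The same shares apply to the lists that follow. MAPK3, the gene of ERK1, was at 57.5 ± 3.72 RPKM (SD, n = 2) in MDA-MB-231 ERK5-ko libraries against 45.7 ± 4.49 in controls, and at 36.1 ± 0.246 against 54.4 ± 0.388 in Hs-578T. The difference between the lines passed, at 0.92 (SE 0.128, limma adjusted p = 0.00024). MAPK3 was also lower in Hs-578T MEK5DD libraries, at 41.8 ± 1.09 RPKM, a log2 fold change of -0.38 (SE 0.0903, limma adjusted p = 0.012). It did not pass between the ERK5-ko and MEK5DD libraries of Hs-578T. MAP2K4, a kinase that activates JNK and p38, fell from 46.3 ± 3.03 to 27.4 ± 1.94 RPKM (SD, n = 2) in MDA-MB-231 MEK5DD libraries.

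Of 8 partners of the ERK5 module, 7 were tested and SH2D2A was under the filter. None was higher and 2 lower in MDA-MB-231 ERK5-ko libraries, 1 was higher and 1 lower in Hs-578T ERK5-ko, 2 were higher and 1 was lower in MDA-MB-231 MEK5DD, and none was higher and 2 lower in Hs-578T MEK5DD libraries. HSP90AA1, the inducible form of the chaperone that, with CDC37, folds many kinases, was at 2008 ± 125 RPKM (SD, n = 2) in MDA-MB-231 MEK5DD libraries against 834 ± 59.5 in controls, a log2 fold change of 1.27 (SE 0.186, limma adjusted p = 0.000219). PRKCZ, the gene of an atypical protein kinase C that binds MEK5, was lower in the same libraries, at 2.51 ± 0.057 against 8.97 ± 1.07 RPKM (SD, n = 2). In MDA-MB-231 ERK5-ko libraries PRKCZ was at 6.06 ± 0.421 RPKM, also lower.

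Of MEF2 partners, a list of 7 genes was tested in full: the class IIa histone deacetylases and CABIN1, which bind and repress MEF2 factors, EP300, a coactivator, and MEF2B, itself a MEF2 factor. In ERK5-ko libraries 1 was higher and none lower in MDA-MB-231, and none was higher and 4 lower in Hs-578T. Among MEK5DD libraries MDA-MB-231 had 2 higher and 1 lower, and none was higher and 1 lower in Hs-578T. HDAC9 was at 6.96 ± 0.393 RPKM (SD, n = 2) in Hs-578T ERK5-ko libraries against 13.4 ± 0.976 in controls, a log2 fold change of -0.90 (SE 0.0933, limma adjusted p = 2.74e-05). It was at 33.8 ± 0.403 RPKM in MDA-MB-231 MEK5DD libraries against 19.0 ± 0.614 in controls, a log2 fold change of 0.82. HDAC5 was higher in MDA-MB-231 ERK5-ko libraries (38.2 against 27.0 RPKM) and lower in MEK5DD libraries (15.2 RPKM).

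Of 9 genes known downstream of ERK5 or MEF2, 7 were tested, NR4A3 and NOS3 being under the filter. Among ERK5-ko libraries MDA-MB-231 had 1 higher and 2 lower, and 4 were higher and 2 lower in Hs-578T. In MEK5DD libraries 3 were higher and 1 lower in each line. FOSL1, a subunit of AP-1, was at 219 ± 21.5 RPKM (SD, n = 2) in MDA-MB-231 ERK5-ko libraries against 320 ± 12.5 in controls, and at 118 ± 0.745 against 48.6 ± 0.0289 in Hs-578T. SGK1, a kinase whose promoter is an ERK5 target in other cells, was at 24.3 ± 2.32 against 35.4 ± 1.19 and at 25.1 ± 1.01 against 11.1 ± 1.89 RPKM. Both fell in MDA-MB-231 and rose in Hs-578T, and the ERK5-ko effect differed between the lines by -1.82 for FOSL1 (SE 0.128, limma adjusted p = 2.72e-06) and -1.69 for SGK1 (SE 0.179, limma adjusted p = 3.71e-05). THBD, the gene of thrombomodulin and a KLF2 target in endothelium, was at 7.22 ± 0.418 against 24.3 ± 0.625 RPKM in MDA-MB-231 MEK5DD libraries. It passed as higher in MDA-MB-231 ERK5-ko libraries and as lower in Hs-578T ERK5-ko libraries. A link of THBD to KLF2 was not tested.

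Of 12 other KLF genes, 11 were tested and KLF1 was not analysed here. In ERK5-ko libraries 1 was higher and none lower in MDA-MB-231, and 3 were higher and 2 lower in Hs-578T. In MEK5DD libraries 4 were higher and none lower in MDA-MB-231, and 1 was higher and 1 lower in Hs-578T. KLF8, a repressor linked to invasion, was higher in the ERK5-ko libraries of both lines, at 1.80 ± 0.29 against 1.16 ± 0.0923 RPKM (SD, n = 2) and at 1.63 ± 0.066 against 0.315 ± 0.0148. It was also higher in MDA-MB-231 MEK5DD libraries, and lower in those of Hs-578T, at 0.105 ± 0.0401 RPKM. The ERK5-ko effect on KLF8 differed between the lines by -0.92 (SE 0.174, limma adjusted p = 0.00175). KLF5, an epithelial factor, was higher in both Hs-578T groups, at 5.13 ± 0.262 RPKM in ERK5-ko and 7.16 ± 1.30 in MEK5DD libraries against 2.90 ± 0.703 in controls.

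The median log2 fold changes of these lists against parental controls lay between -0.19 and 0.02 for ERK5-ko in MDA-MB-231, between -0.37 and 0.45 for ERK5-ko in Hs-578T, between -0.01 and 0.35 for MEK5DD in MDA-MB-231 and between -0.28 and 0.29 for MEK5DD in Hs-578T. The shares of all genes that passed, given above for the same comparisons, are the background for these counts.

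Genes whose pattern over the 12 libraries was most like that of a member were ranked by Pearson r of log2(RPKM + 0.5) after subtracting the mean of the cell line. The points share libraries and depth, and the highest of many correlations is high by selection. KLF4 was most like KLF10 (r = 0.985) and EZH2 (r = 0.977). MAP2K5, whose values are set by 2 libraries, was most like KCNJ4 (r = 0.989). For MEF2C the nearest genes were SEPT7 (r = 0.952) and ATP6V0A2 (r = 0.951), and for KLF6 the nearest was CPE (r = 0.950). MAPK7 had the weakest nearest gene, CDKN1A, with r = 0.880.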

How the data were processed

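RNA of 12 libraries, in 6 groups of 2, was analysed. The authors deposited RPKM values, reads scaled to gene length and to the library total. Per the labels, a stranded mRNA kit was used, and the submitters' processing notes name bcl2fastq, Trimmomatic 0.32, TopHat2 2.1.1, R 3.3.1, DESeq2 1.12.4 and GRCh38. The counting tool, its annotation and its handling of strand are not given in the sources used here, so reads from overlapping genes may be shared.

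Whole reads and library totals (20248162 to 27791195) were recovered from the steps of the RPKM values, and 32151 of 32152 genes gave reads whole to within 0.001. These reads served as a description and for an alternative test.

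Protein-coding genes that reached 0.5 RPKM in 2 or more libraries entered the test, on log2(RPKM + 0.5) fitted by limma 3.58.1 (R 4.3.3) with a mean for each of the 6 groups, 6 residual degrees of freedom and a mean trend of the variance. Benjamini-Hochberg adjustment ran over all genes of each of 9 comparisons. The fit was also run on simulated reads with independent libraries and the same dispersion for all genes and groups. That run is no check of the fit under the unequal replicate spread of these groups. Deviations of same-numbered replicates from their group means correlated at 0.541 between Hs-578T parental and MEK5DD libraries. The other pairs of groups in a line had correlations of 0.107 to 0.187. The main fit took no pairs, and the replicate block was an alternative. Its pairs were taken from the replicate numbers in the sample titles, which follow consecutive passages. Nothing in the labels says that same-numbered libraries were handled together. Alternatives of 10 kinds changed the pseudocount (0.1 or 1), filter, scaling, block, libraries and test. All 10 genes are named in every comparison, with up to 2 genes per list and comparison with parental controls, those past the test with the largest fold change, and the nearest genes by likeness, some of which are not reported here. The genes, lists and motif were chosen with earlier results of these data known.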

Additional observations from a re-analysis of the deposited data

Results flagged for a closer look

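In 6 cases the effect of a label differed between the 2 lines by limma's test of the difference itself, each on 2 libraries a group and on the log2 scale, MDA-MB-231 minus Hs-578T. For ERK5-ko the difference was -0.84 for KLF4, 0.44 for MAP2K5 and 0.41 for KLF6. For MEK5DD it was 3.26 for MAP2K5, -0.86 for MEF2A and 0.81 for KLF4. The Hs-578T parental replicates, which differ more than those of most groups, enter all 6 differences, and the Hs-578T MEK5DD replicates enter those for MEK5DD. The 3 MEK5DD differences kept their call in all 20 alternatives, which include fits without each of these libraries, with ranges of 3.16 to 3.37 for MAP2K5, -1.07 to -0.65 for MEF2A and 0.66 to 0.96 for KLF4. The ERK5-ko differences of KLF4 (-0.90 to -0.73) and KLF6 (0.36 to 0.50) also kept theirs, and that of MAP2K5 was lost in 8 of 20 alternatives. A fit of 1 line alone cannot test a difference between lines. Every alternative above therefore took 1 spread per gene from both lines. Passage cannot be told apart from the labels. The groups were too small for a test of single outlying libraries.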

How the results depend on the processing

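Counts of the 10 genes past the test moved as follows. The shares of all genes that passed in the same settings were not counted, so whether the moves are particular to these genes is not shown. A fit of the libraries of 1 line gave 6 in MDA-MB-231 ERK5-ko, 5 in MDA-MB-231 MEK5DD, 8 between the labels in MDA-MB-231 and 0 for MEK5DD in Hs-578T. Median-ratio scaling and quantile normalization each gave 2 in Hs-578T ERK5-ko and 4 in MDA-MB-231 ERK5-ko. The replicate block gave 5 in MDA-MB-231 ERK5-ko, 4 in Hs-578T ERK5-ko and 5 in Hs-578T MEK5DD, and beside the calls given above as changed by it, it changed no other call of these genes. Leaving out single libraries gave 2 to 5 in MDA-MB-231 ERK5-ko, 1 to 5 in Hs-578T ERK5-ko, 1 to 4 in MDA-MB-231 MEK5DD and 3 to 5 for the difference in the MEK5DD effect. Apart from smaller sets of libraries, the cause was not tested.

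Signs turned for differences that had missed the threshold. Under median-ratio scaling and quantile normalization these were MEF2C in MDA-MB-231 MEK5DD (0.02 and 0.12), MEF2D in Hs-578T MEK5DD (0.05 and 0.04), MAPK7 (-0.02 and -0.03) and MEF2D (-0.09 and -0.10) between the labels in Hs-578T, and MEF2D in the ERK5-ko difference between lines (0.03 and 0.03) and, under the former, in the MEK5DD difference (-0.01). Without single libraries the log2 values ranged as follows: in Hs-578T ERK5-ko from -0.08 to 0.29 for MAP3K2 and -0.21 to 0.18 for MEF2D, in MDA-MB-231 MEK5DD from -0.08 to 0.06 for MEF2C, in Hs-578T MEK5DD from -0.36 to 0.12 for MAP3K2, -0.24 to 0.16 for MEF2D and -0.54 to 0.23 for KLF2, between the labels in Hs-578T from -0.02 to 0.46 for MAP3K2, -0.16 to 0.21 for MEF2D and -0.71 to 0.05 for KLF2, between parental lines from -0.35 to 0.04 for MEF2A, in the ERK5-ko difference from -0.06 to 0.13 for MAPK7, -0.13 to 0.25 for MEF2A, -0.26 to 0.14 for MEF2D and -0.30 to 0.01 for KLF2, and in the MEK5DD difference from -0.12 to 0.07 for MAPK7 and -0.16 to 0.24 for MEF2D. Where a group was left with 1 library, it was assumed to vary like the others. Over the 10 genes, 9 comparisons and all alternatives, 1697 results kept their side of the threshold and direction, 68 crossed to pass, 55 no longer passed and 40 turned sign. The low reads of MEF2C and KLF2 limit their precision.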
